A study of Homo sapiens with 12 samples.

Results

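Toll-like receptors are the germline-encoded sensors through which myeloid cells recognise parts of microbes. Of the 20030 gene entries in the expression table, 10 carried the symbols chosen here: the receptor genes TLR1, TLR2, TLR4, TLR5, TLR6, TLR7 and TLR8, the partner gene LY96, the receptor homologue CD180 and the adaptor gene MYD88. The entries were taken by symbol alone, and the list of symbols was chosen with earlier results of these data known.

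The 12 mRNA-seq libraries came from 2 established acute myeloid leukemia cell lines with MLL rearrangements, with 3 control and 3 JOA libraries per line. JOA, Jiyuan oridonin A, is a compound isolated from the plant Isodon rubescens. MOLM-13 cells, which carry the FLT3/ITD mutation, received 0.5 µM JOA, THP-1 cells, which have wild-type FLT3, received 2 µM, and all cells were collected at 48 h against DMSO alone. The labels and the study's methods give that time, while another passage of the study gives a longer one. The comparison within each line asked what JOA did to gene expression, and since dose and line differ together their parts in any difference between the responses cannot be told apart. Each line is a single cell population, and the sources used here do not say whether the 3 libraries of a group were separate cultures. The study speaks of repeated experiments in general. The legend of its mRNA-seq figure names 2 independent experiments, without saying how they relate to the 3 libraries. The p-values therefore measure only the spread between these libraries, which may be technical.

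Cell-surface members of the family (TLR1, TLR2, TLR4, TLR5 and TLR6) bind bacterial lipids and proteins, whereas TLR7 and TLR8 sit in endosomes and bind single-stranded RNA. TLR2 works as a heterodimer with TLR1 or TLR6, and TLR4 needs the secreted protein encoded by LY96 to bind lipopolysaccharide. CD180 resembles TLR4 outside the cell but lacks its signalling domain, and pairs with the product of LY86. Most of these receptors pass their signal to MYD88, which recruits the IRAK kinases and leads to NF-kB activation. Monocytes and monocytic leukemia cells are known to carry TLR2 and TLR4.

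Promoter sequence was looked up for the members because PU.1, the product of SPI1, is a transcription factor needed for myeloid development. SPI1 averaged 55.5 and 58.4 FPKM (fragments scaled to exon length and to the mapped total of a library) in MOLM-13 control and JOA libraries, and 39.9 and 44.9 FPKM in THP-1 control and JOA libraries. The RefSeq promoter table, on build GRCh38.p14, gave entries that were used for 7 of the 10 members. TLR1, TLR7 and LY96 were not among them. GAGGAA, the core letters of a PU.1 site, was searched on both strands in the 250 bases before each start, and was found 4 times at TLR4 and 1 time each at TLR6 and MYD88. Thus 3 of 7 members held it, where 23.6% of 35116 promoters in the table did. Exons annotated in GENCODE cover 246 of the 250 bases at TLR4 and 183 at MYD88, so 2 of these 3 stretches are mostly transcribed sequence. The AP-1 letters TGANTCA occurred at 1 of the 7, CD180, against 6.57% of all promoters. Such a match is a description of letters, not evidence of binding. The motifs were picked with the expression values known.

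The upstream stretches of TLR6 and CD180 are shown because TLR6 had the largest change with JOA among the members tested in THP-1 cells and CD180 the largest difference between the lines. Both genes lie on the minus strand, TLR6 from 38822897 to 38868390 on chromosome 4 and CD180 from 67179613 to 67196799 on chromosome 5. Neither stretch overlaps an exon annotated in GENCODE, and that of TLR6 lies within the span of the RefSeq gene. The TLR6 stretch is chr4:38856818-38857067 and that of CD180 is chr5:67196800-67197049. Each is written 5′ to 3′ on the gene's own strand and ends at the base before the start, with GAGGAA or its reverse complement in capitals.
TLR6: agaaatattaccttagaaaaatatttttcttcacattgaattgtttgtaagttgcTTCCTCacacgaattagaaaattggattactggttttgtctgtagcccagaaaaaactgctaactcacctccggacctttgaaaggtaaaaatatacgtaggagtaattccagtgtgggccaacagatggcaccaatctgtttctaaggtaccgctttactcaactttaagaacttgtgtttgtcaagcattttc
CD180: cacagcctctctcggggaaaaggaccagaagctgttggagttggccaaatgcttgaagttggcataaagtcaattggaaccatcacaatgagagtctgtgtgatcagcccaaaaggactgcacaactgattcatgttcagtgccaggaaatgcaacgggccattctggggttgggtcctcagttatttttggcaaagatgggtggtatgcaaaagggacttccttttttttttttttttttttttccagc
The single match at TLR6 begins 195 bases before the start, and the CD180 stretch holds none.

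TLR1 and TLR6 are related genes and neighbours on chromosome 4, where TLR10 ends 4578 bases before TLR1 and TLR1 ends 17252 bases before TLR6. TLR7 and TLR8 are neighbours on the X chromosome, 16258 bases apart. Reads from any stretch that TLR1 and TLR6 share could be split between them by the authors' counting, so the values of both are uncertain to that extent. TLR8 overlaps an annotated antisense gene, TLR4 shares its first exon with an annotated readthrough gene, and whether the counting used strand is not given in the sources used here.

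Both lines had a monocytic profile: 7 of 8 monocyte markers averaged at least 1 FPKM in every group. The exception was CD14, the co-receptor that hands lipopolysaccharide to TLR4, at 0.144 FPKM in MOLM-13 and 0.548 in THP-1 controls. Of markers for other cell types, CD3D reached a mean of 2.83 FPKM in MOLM-13 controls, and CD79B 8.75 and GP9 1.28 FPKM in THP-1 controls, while MS4A1, CD3G, PF4, PPBP and HBB were listed at or near 0 in every group. Correlations between libraries of a line ran from 0.988 to 0.996 across genes, and no library stood apart. Absolute depth is unknown. Relative depth, read from the steps between low values, lay between 0.894 and 1.00 for MOLM-13 libraries and between 0.928 and 1.07 for THP-1 libraries, with the first control library of each line set to 1.

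The members spanned a wide range of levels. In control MOLM-13 cells their mean FPKM fell in the order CD180 (20.9), MYD88 (14.0), TLR2 (6.12), TLR4 (2.79), TLR6 (1.90), TLR1 (0.779), LY96 (0.395), TLR7 (0.272), TLR8 (0.254) and TLR5 (0.0621). LY96 overlapped TLR7, and TLR7 overlapped TLR8, while all other neighbours in that order were separated in their 3 libraries. In control THP-1 cells MYD88 (13.0) came first and CD180 (8.13) second, followed by TLR2 (6.35), TLR4 (4.25), TLR6 (0.965) and TLR1 (0.429), all separated. The 4 lowest, LY96 (0.164), TLR7 (0.123), TLR8 (0.0760) and TLR5 (0.0314), each overlapped the next. CD180 in MOLM-13 controls lay above 87.9% of the listed genes, MYD88 above 82.8% and TLR2 above 69.7%.

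**Figure D1:**
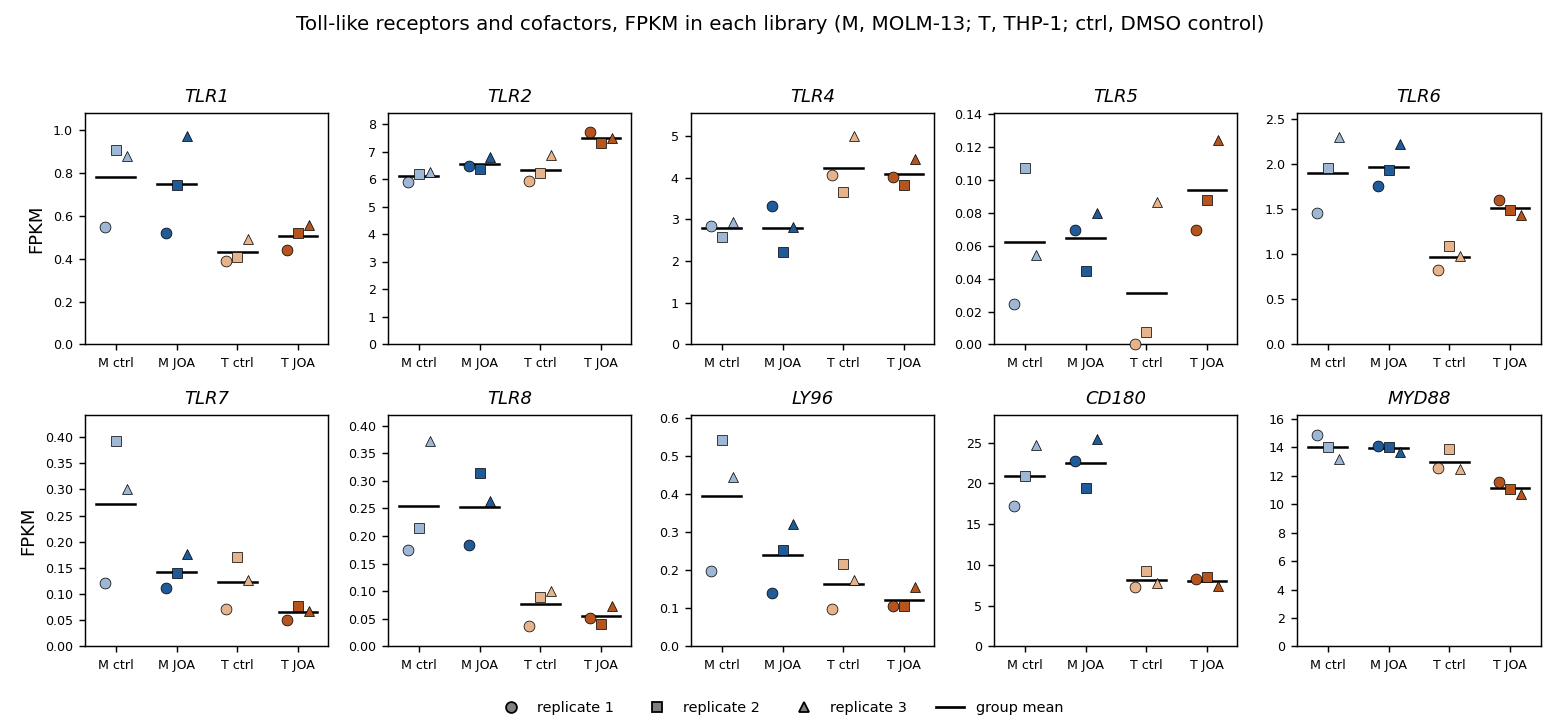
FPKM (y axes, each from 0) of the 10 genes in each of the 12 libraries, with 3 points per group shaped by replicate number and a bar at the group mean. TLR6 in THP-1 cells runs from 0.825 to 1.09 in control and from 1.44 to 1.59 in JOA libraries, whereas CD180 in MOLM-13 libraries lies above all THP-1 libraries.

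TLR2 and TLR4 together held most of the receptor signal. Of the summed FPKM of the 10 human TLR genes, they took 62.6% ± 2.26 (SD, n = 3) in MOLM-13 control and 79.2% ± 3.20 in THP-1 control libraries. The sum itself differed little, lying between 12.6 and 14.9 FPKM in all 12 libraries. The TLR2 share was 43.0% ± 0.544 in control and 46.2% ± 1.11 in JOA libraries of MOLM-13 cells. In THP-1 cells it was 47.5% ± 0.230 without and 51.8% ± 1.15 with JOA, and the 3 JOA libraries lay above the 3 control libraries in both lines. The TLR6 share in THP-1 cells went from 7.23% ± 0.997 to 10.4% ± 0.630, also without overlap. These shares were not tested.

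**Figure D2:**
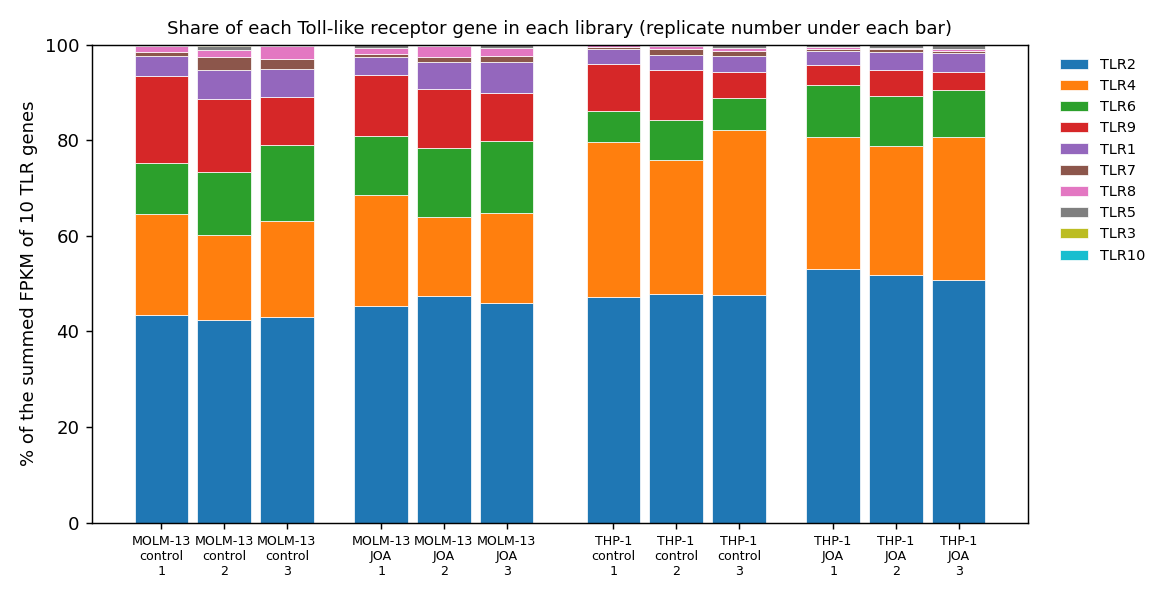
Percent of the summed FPKM of 10 TLR genes (y axis) held by each gene, with 1 stacked bar per library. TLR2 and TLR4, the lowest 2 blocks, take 60.1% to 68.6% in MOLM-13 and 75.8% to 82.2% in THP-1 libraries.

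Without pairing of the libraries, no member was called as changed by JOA in either line. A gene was called where limma, with Benjamini-Hochberg adjustment over all genes tested, gave an adjusted p under 0.05 and the log2 fold change was 0.58 or more in size. In MOLM-13 cells 9 of the 10 members passed the filter on low values (a mean of at least 0.1 FPKM) and 0 were called, where 0 of 11693 genes were (0%). Of the 9, 0 reached an unadjusted p under 0.05, against 4.11% of all genes tested. In THP-1 cells 7 members passed the filter and 0 were called, where 17 of 12712 genes were (0.134%). The study, with DESeq, a test on counts, and the same cutoffs, reported more changed genes in each line. A gene not called here may still have changed. At an unadjusted p under 0.05 there were 3 of 7 members in THP-1 cells (TLR6, TLR2 and MYD88), against 16.9% of all genes tested. The median log2 fold change of the members tested was -0.01 in MOLM-13 and 0.00 in THP-1 cells, beside 0.01 and 0.02 over all genes tested. Treated as pairs by replicate number, the THP-1 libraries gave 1 call among the members, TLR6, where 161 of 12712 genes were called (1.27%).

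TLR6, the partner of TLR2 for diacylated lipopeptides, had the largest difference with JOA among members tested in THP-1 cells. Its 3 control libraries stood at 0.825, 1.09 and 0.979 FPKM, and its 3 JOA libraries at 1.59, 1.49 and 1.44 FPKM. All JOA libraries lay above all control libraries. The log2 fold change of FPKM + 0.1 was 0.60 (SE 0.13, 95% interval 0.31 to 0.89), a 1.52-fold difference, with an adjusted p of 0.0864 by limma with Benjamini-Hochberg adjustment. With the replicate number as a block, since same-numbered libraries of a line deviated together, the adjusted p was 0.0315 and TLR6 was called, as were 1.27% of the genes tested. Without both samples numbered 1, a choice made after seeing the data, it was 0.46 (SE 0.13, adjusted p = 0.252 by limma with Benjamini-Hochberg adjustment). The study, from these same libraries, listed TLR6 among genes altered by JOA in THP-1 cells, and its text gave no direction. The difference seen here is therefore not independent evidence.

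In MOLM-13 cells TLR6 stood at 1.45, 1.95 and 2.30 FPKM in control and at 1.76, 1.93 and 2.22 FPKM in JOA libraries. The groups overlapped fully, and the log2 fold change was 0.07 (SE 0.17, 95% interval -0.32 to 0.45). The response of TLR6 in THP-1 cells exceeded that in MOLM-13 cells by 0.53 on the log2 scale (95% interval 0.05 to 1.01, unadjusted p = 0.0323 and adjusted p = 0.640 by limma with Benjamini-Hochberg adjustment). That difference between the lines did not pass the threshold.

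TLR2, the shared subunit of the lipopeptide receptors, was the member whose groups were separated in both lines. In THP-1 cells its controls stood at 5.95, 6.22 and 6.88 FPKM and its JOA libraries at 7.71, 7.32 and 7.50 FPKM. The log2 fold change was 0.24 (SE 0.07, 95% interval 0.08 to 0.40), below the fold threshold, with an adjusted p of 0.153 by limma with Benjamini-Hochberg adjustment. In MOLM-13 cells the controls stood at 5.90, 6.21 and 6.26 FPKM and the JOA libraries at 6.47, 6.40 and 6.83 FPKM. JOA libraries were again all above the controls, by a log2 fold change of 0.10 (SE 0.07, 95% interval -0.06 to 0.25, adjusted p = 1.00 by the same test). Separation of the groups held for 1 of 9 members in MOLM-13 cells, where 9.65% of all genes tested were separated, and for 3 of 7 in THP-1 cells, where 23.4% were.

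MYD88, the adaptor, was the third separated member in THP-1 cells and the only one of them that was lower with JOA. It stood at 12.6, 13.9 and 12.5 FPKM in control and at 11.6, 11.05 and 10.7 FPKM in JOA libraries. Its log2 fold change was -0.22 (SE 0.06, 95% interval -0.36 to -0.07), below the fold threshold, with an adjusted p of 0.146 by limma with Benjamini-Hochberg adjustment. In MOLM-13 cells it stood at 14.9, 14.0 and 13.2 FPKM in control and at 14.1, 14.0 and 13.6 FPKM in JOA libraries, which overlapped, with a log2 fold change of -0.01 (95% interval -0.16 to 0.14). The response in THP-1 cells was lower than in MOLM-13 cells by a log2 difference of -0.21 (unadjusted p = 0.0333, adjusted p = 0.640 by limma with Benjamini-Hochberg adjustment). For this interaction 0 of 12626 genes were called (0%), and 2 of 9 members, TLR6 and MYD88, had an unadjusted p under 0.05, against 7.24% of all genes tested.

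TLR1, which pairs with TLR2 for triacylated lipopeptides, showed overlapping groups. In THP-1 cells it stood at 0.390, 0.407 and 0.490 FPKM in control and at 0.439, 0.521 and 0.559 FPKM in JOA libraries (log2 fold change 0.20, 95% interval -0.16 to 0.56). In MOLM-13 cells it stood at 0.549, 0.908 and 0.880 FPKM in control and at 0.522, 0.745 and 0.971 FPKM in JOA libraries (log2 fold change -0.06, 95% interval -0.62 to 0.50). In both MOLM-13 groups the library numbered 1 was the lowest.

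TLR4, the lipopolysaccharide receptor, differed little with JOA. Its THP-1 controls stood at 4.07, 3.66 and 5.01 FPKM and its THP-1 JOA libraries at 4.03, 3.82 and 4.45 FPKM (log2 fold change -0.04, 95% interval -0.32 to 0.24). Its MOLM-13 controls stood at 2.85, 2.59 and 2.94 FPKM and its MOLM-13 JOA libraries at 3.32, 2.23 and 2.82 FPKM (log2 fold change -0.02, 95% interval -0.34 to 0.31). In both lines the control and JOA ranges overlapped. CD14, its co-receptor, had log2 fold changes of 0.17 (SE 0.34) in MOLM-13 and 0.27 (SE 0.45) in THP-1 cells.

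LY96, the lipopolysaccharide-binding partner of TLR4, was far scarcer than TLR4. It stood at 0.198, 0.542 and 0.446 FPKM in MOLM-13 control and at 0.142, 0.255 and 0.323 FPKM in MOLM-13 JOA libraries. The groups overlapped through control library 1, and the log2 fold change was -0.51 (SE 0.33, 95% interval -1.27 to 0.25). Leaving out a single library moved it from -0.84 (without control library 1) to -0.28 (without JOA library 1). In THP-1 cells it stood at 0.0980, 0.218 and 0.176 FPKM in control and at 0.106, 0.107 and 0.156 FPKM in JOA libraries (log2 fold change -0.22, SE 0.24). TLR4 thus exceeded LY96 by 8.59 ± 5.11 times (SD, n = 3) in MOLM-13 control and 28.9 ± 12.4 times in THP-1 control libraries.

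TLR7 and TLR8, the endosomal RNA sensors, were low in both lines. TLR7 stood at 0.121, 0.393 and 0.301 FPKM in MOLM-13 control and at 0.111, 0.140 and 0.176 FPKM in MOLM-13 JOA libraries. The overlap again came from control library 1, and the log2 fold change of -0.55 (SE 0.32, 95% interval -1.28 to 0.18) was the furthest from 0 among the members in that line. It ran from -0.89 without control library 1 to -0.31 without control library 2, and LY96 was further from 0 than TLR7 without JOA library 2 or JOA library 3. TLR8 stood at 0.175, 0.214 and 0.372 FPKM in MOLM-13 control and at 0.183, 0.314 and 0.263 FPKM in MOLM-13 JOA libraries (log2 fold change 0.02, SE 0.26), with full overlap.

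In THP-1 cells both RNA sensors fell below the filter and were read from a fit over all genes with a value above 0. TLR7 stood at 0.0709, 0.172 and 0.127 FPKM in control and at 0.0510, 0.0775 and 0.0684 FPKM in JOA libraries, which overlapped (log2 fold change -0.41, SE 0.18). TLR8 stood at 0.0377, 0.0893 and 0.101 FPKM in control and at 0.0508, 0.0413 and 0.0727 FPKM in JOA libraries (log2 fold change -0.17, SE 0.17). Each JOA library had less TLR7 than the control library of its own number, in 3 of 3 pairs in MOLM-13 and 3 of 3 in THP-1 cells. How many of all genes had such agreement was not computed, so this is only a description. By limma with Benjamini-Hochberg adjustment and the replicate block, the adjusted p for TLR7 was 0.477 in MOLM-13 and 0.177 in THP-1 cells.

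TLR1, TLR7 and LY96 shared a pattern that followed the library number. For these 3 genes the library numbered 1 was the lowest in all 4 groups, which held for 3.81% of genes with a mean of at least 0.1 FPKM. TLR4 was lowest in the library numbered 2 in all 4 groups (1.36% of genes), and MYD88 in the library numbered 3 (5.12%). Without both samples numbered 1, a choice made after seeing the data, the log2 fold change in MOLM-13 cells was -0.79 (SE 0.25) for TLR7 and -0.61 (SE 0.22) for LY96, and both had an adjusted p of 1.00 by limma with Benjamini-Hochberg adjustment. The part of the library number in these levels was not otherwise tested.

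TLR5, the flagellin receptor, was the scarcest member over the 12 libraries and fell below the filter in both lines. Its THP-1 controls were listed at 0, 0.00763 and 0.0865 FPKM and its THP-1 JOA libraries stood at 0.0694, 0.0880 and 0.124 FPKM. Corrected for relative depth and divided by the smallest of them above 0, these values came to 0, 1.00 and 10.01 in control and 7.97, 9.98 and 16.1 in JOA libraries. The third control library lay within the JOA range, and the fit over all genes above 0 gave a log2 fold change of 0.61 (SE 0.25, adjusted p = 0.342 by limma with Benjamini-Hochberg adjustment). MOLM-13 libraries stood at 0.0244, 0.107 and 0.0544 FPKM in control and at 0.0697, 0.0444 and 0.0797 FPKM with JOA, which overlapped fully.

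CD180, the most abundant member in MOLM-13 cells, showed no separation with JOA. It stood at 17.2, 20.9 and 24.7 FPKM in MOLM-13 control and at 22.8, 19.4 and 25.4 FPKM in MOLM-13 JOA libraries (log2 fold change 0.11, 95% interval -0.21 to 0.43). In THP-1 cells it stood at 7.34, 9.25 and 7.81 FPKM in control and at 8.27, 8.56 and 7.44 FPKM in JOA libraries, with a log2 fold change within 0.01 of 0 (95% interval -0.23 to 0.22). LY86, which encodes its partner, stood at 14.4, 14.2 and 15.8 FPKM in MOLM-13 control and at 16.6, 16.5 and 16.5 FPKM in MOLM-13 JOA libraries. In THP-1 cells LY86 stood at 20.6, 19.8 and 19.3 FPKM in control and at 17.7, 17.0 and 17.1 FPKM in JOA libraries. The LY86 groups were thus separated in both lines, above control in MOLM-13 and below it in THP-1 cells. In either direction 9.65% of all genes tested were separated in MOLM-13 and 23.4% in THP-1 cells. The LY86 log2 fold change was 0.16 (SE 0.06) in MOLM-13 and -0.21 (SE 0.05) in THP-1 cells, below the fold threshold in both. In THP-1 cells its adjusted p was 0.0989, or 0.0315 with the replicate block, by limma with Benjamini-Hochberg adjustment. The difference between the responses was -0.37 on the log2 scale (unadjusted p = 0.000283, adjusted p = 0.326, and 0.0692 with the replicate block, by limma with Benjamini-Hochberg adjustment), which did not pass the threshold.

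**Figure D3:**
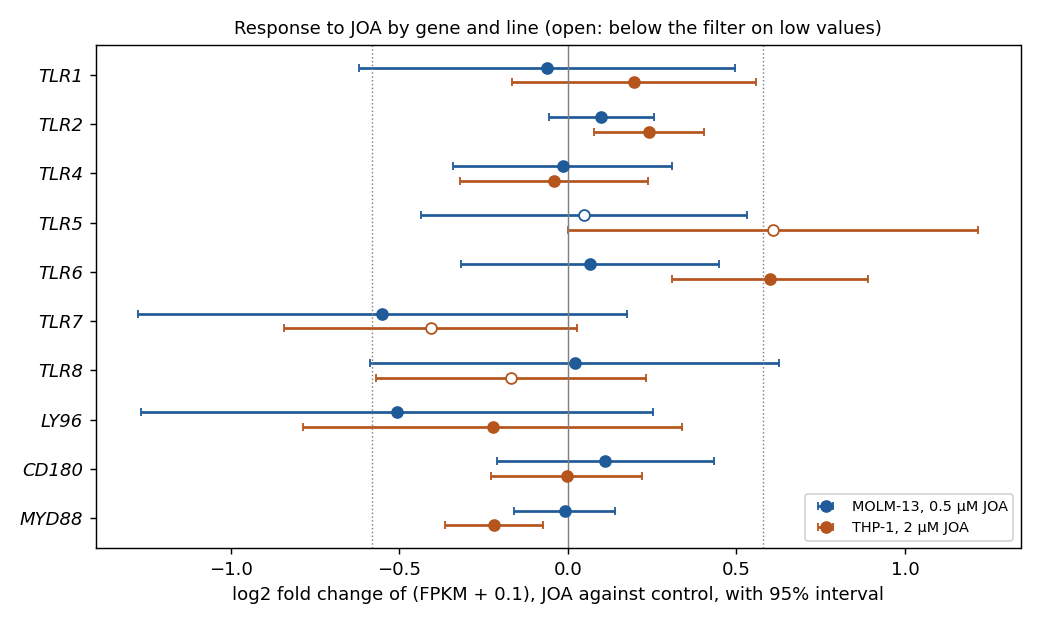
Log2 fold change of FPKM + 0.1 with its 95% interval (x axis) for each gene, JOA against control, in MOLM-13 (blue) and THP-1 cells (orange); open points are genes below the filter and dotted lines mark the fold threshold of 0.58. TLR6 in THP-1 cells, at 0.60 with an interval of 0.31 to 0.89, stands furthest from 0 among genes that passed the filter.

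Ratios between partner genes within a library do not depend on the scaling between libraries. Of 12 ratios, 11 were tested by an exact two-sided permutation test, whose smallest possible p with 3 against 3 is 0.1, so none could pass 0.05. TLR6 to TLR2 in THP-1 cells was 0.139, 0.175 and 0.142 in control and 0.207, 0.204 and 0.192 in JOA libraries, without overlap (exact permutation p = 0.1, adjusted p = 0.55). TLR8 to TLR7 in MOLM-13 cells was 1.44, 0.545 and 1.23 in control and 1.65, 2.24 and 1.497 in JOA libraries, also without overlap (exact permutation p = 0.1, adjusted p = 0.55). The other 10 ratios overlapped. TLR6 to TLR1, a pair of related neighbours, was 2.12, 2.68 and 2.00 in THP-1 control and 3.63, 2.86 and 2.57 in THP-1 JOA libraries, so that 1 JOA library lay within the control range. By replicate number, the JOA library had the higher ratio in 3 of 3 pairs for TLR6 to TLR2, TLR6 to TLR1, TLR8 to TLR7 and CD180 to LY86 in THP-1 cells, and for TLR4 to LY96 and TLR8 to TLR7 in MOLM-13 cells. TLR8 to TLR7 in THP-1 cells was the ratio left untested, as it rests on values below 0.05 FPKM. Some ratios share a gene, so these counts are not independent, and no share over other gene pairs was computed.

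**Figure D4:**
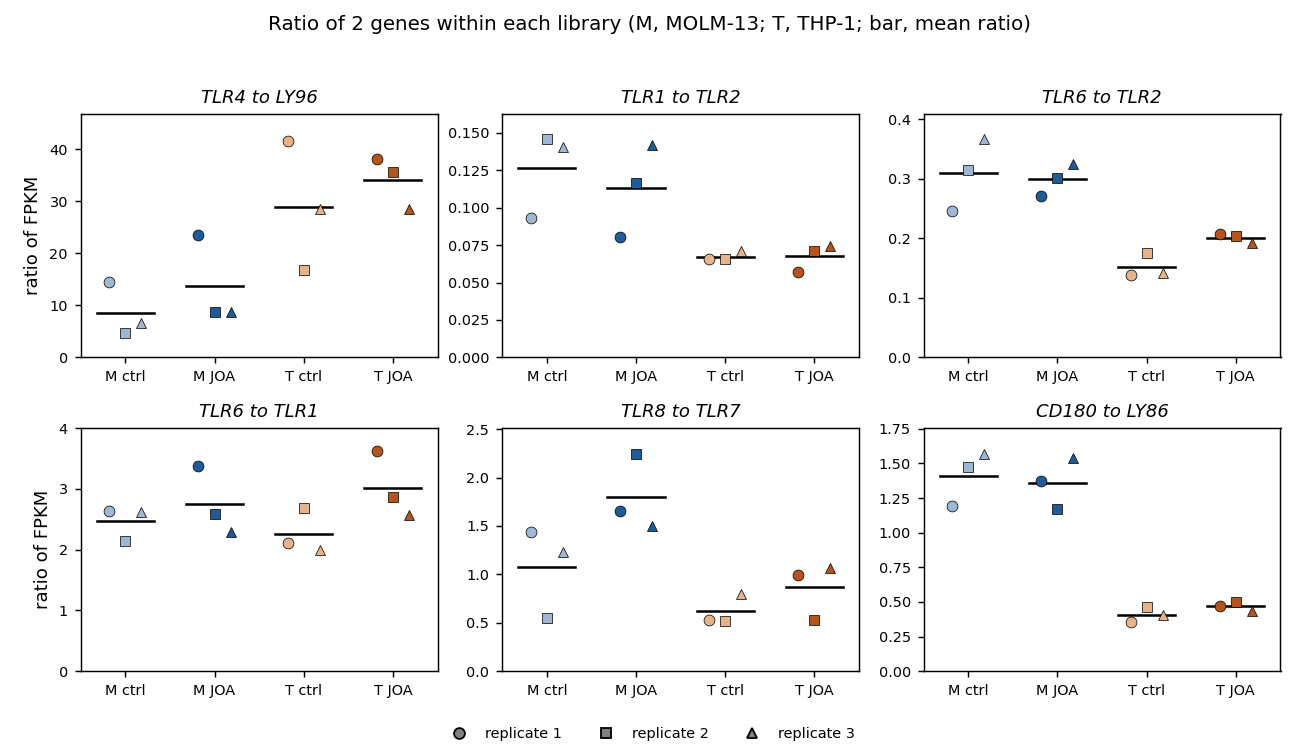
Ratio of the FPKM of 2 genes within each library (y axes, from 0) for 6 gene pairs, with 3 points per group and a bar at the mean ratio. TLR6 to TLR2 has a mean of 0.152 in control and 0.201 in JOA libraries of THP-1 cells, and CD180 to LY86 has a mean of 1.41 in MOLM-13 and 0.409 in THP-1 controls.

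The larger differences lay between the lines. In controls, 5 of the 9 members tested were called lower in THP-1 than in MOLM-13 cells and 0 were called higher, where 44.0% of 12635 genes were called, 19.0% lower and 25.0% higher. In such bulk samples fewer cells with a transcript and less RNA per cell cannot be told apart. The median log2 difference of the members was -0.71, beside 0.06 over all genes tested. CD180 differed most, at 8.13 ± 0.996 FPKM (SD, n = 3) in THP-1 against 20.9 ± 3.75 in MOLM-13 controls (a log2 difference of -1.35, SE 0.14, with an adjusted p of 4.55e-05 by limma with Benjamini-Hochberg adjustment). TLR6 was lower by a log2 fold change of -0.89 (SE 0.18, adjusted p = 0.00225 by the same test), and TLR1 by -0.71 (SE 0.20, adjusted p = 0.0117). The THP-1 controls lay below all MOLM-13 controls for CD180, TLR6 and TLR1.

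TLR8 (-0.99, SE 0.26) and LY96 (-0.86, SE 0.31) were also called lower in THP-1 controls, with adjusted p of 0.00862 and 0.0357 by limma with Benjamini-Hochberg adjustment. TLR8 did not overlap between the lines, while LY96 did. The LY96 call was lost without MOLM-13 control 2, MOLM-13 control 3, THP-1 control 1 or THP-1 control 3, with adjusted p of 0.122, 0.108, 0.110 and 0.0640 by the same test. That call was also lost with no filter on low values (adjusted p = 0.0572) and with TPM (adjusted p = 0.0533), by the same test. With a pseudocount of 1 instead of 0.1, which shrinks the fold of low genes, 1 member was called lower, CD180. TLR4 went the other way, at 4.25 ± 0.693 FPKM in THP-1 against 2.79 ± 0.184 in MOLM-13 controls without overlap, with a log2 fold change of 0.578 (SE 0.13, adjusted p = 0.00334 by the same test) that fell just short of the fold threshold. It passed without MOLM-13 control 1 (0.59), MOLM-13 control 3 (0.62), THP-1 control 1 (0.60) or THP-1 control 2 (0.68). TLR4 was also called higher with a pseudocount of 0.01 (0.59), with median-ratio rescaling (0.59) and with TPM (0.67, adjusted p = 0.00199 by the same test). TLR7 overlapped between the lines and was not called (-0.69, SE 0.32, adjusted p = 0.0848 by the same test). It was called lower without MOLM-13 control 1 (-1.02, adjusted p = 0.00883 by the same test). So it was with the replicate block (adjusted p = 0.0202) and in a single fit over 12 libraries (adjusted p = 0.0380), both by limma. TLR5 was below the filter in this comparison. TLR2 (0.05, SE 0.08) and MYD88 (-0.11, SE 0.07) overlapped between the lines. Separation held for 5 of 9 members, where 74.8% of all genes tested were separated.

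Profiles over the 12 libraries were compared for the 3 members with the largest range of log2(FPKM + 0.1), which were CD180 (1.78), TLR8 (1.78) and TLR7 (1.71). The gene nearest to TLR7, by the root mean square difference of profiles centred on their own means, was another member, LY96, at 0.15, followed by CCDC154 (0.23) and DNAJC18 (0.26). Nearest to CD180 were HRH2 (0.13), CHRNA7 (0.13) and IGBP1 (0.14). Nearest to TLR8 were SLC35E2A (0.18), HMBOX1 (0.19) and CCNG1 (0.19). The 12 libraries share 2 lines and the library numbers, so this likeness is a description.

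The remaining receptor genes were TLR3, TLR9 and TLR10. TLR3, a sensor of double-stranded RNA, and TLR10, the neighbour of TLR1, stayed below 0.05 FPKM in every library. TLR9, which binds unmethylated CpG DNA in endosomes, stood in THP-1 cells at 1.22, 1.36 and 0.778 FPKM in control and at 0.606, 0.771 and 0.584 FPKM in JOA libraries. All THP-1 JOA libraries lay below all controls. The log2 fold change of TLR9 was -0.67 (SE 0.21), with an adjusted p of 0.168, and of 0.0338 with the replicate block, by limma with Benjamini-Hochberg adjustment, so that TLR9 was called lower only with the block. In MOLM-13 cells TLR9 stood at 2.48, 2.21 and 1.45 FPKM in control and at 1.82, 1.68 and 1.51 FPKM in JOA libraries, which overlapped (log2 fold change -0.25, SE 0.19).

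The rest of the pathway was taken from 5 lists. For JOA against control, limma with Benjamini-Hochberg adjustment called 0 genes of any of these lists in either line: 0 of 7 partners and chaperones tested in each line, 0 of 14 and 0 of 16 adaptors and proximal kinases in MOLM-13 and THP-1 cells, 0 of 11 NF-kB and IRF factors, 0 of 10 negative regulators, and 0 of 10 and 0 of 9 inducible target genes. The median log2 fold change of the inducible target genes was 0.02 in MOLM-13 and 0.22 in THP-1 cells, beside 0.01 and 0.02 over all genes tested. With the replicate block, 1 list gene was called higher in THP-1 cells, where 0.637% of all genes tested were. This was CCL3, a chemokine gene induced by NF-kB, with a log2 fold change of 0.61 (SE 0.20) and an adjusted p of 0.193, or 0.0451 with the block. TIRAP, the adaptor that brings MYD88 to TLR2 and TLR4, had a log2 fold change of 0.54 (SE 0.09) in THP-1 cells, with an adjusted p of 0.0636, or 0.0180 with the block, and stayed below the fold threshold.

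The gene with the smallest unadjusted p was, among NF-kB and IRF factors, IRF3 in THP-1 cells (log2 fold change 0.25, with 0.0877 as its adjusted p from limma with Benjamini-Hochberg adjustment) and NFKB1 in MOLM-13 cells (-0.11). Among negative regulators it was RNF216, a ubiquitin ligase, in THP-1 (0.10) and SOCS1, an inhibitor of cytokine signalling, in MOLM-13 cells (0.41, SE 0.11). IRAK2, a kinase recruited through MYD88, at 0.20, and TNF, an inflammatory cytokine gene, at -0.34, were the first of their lists in MOLM-13 cells. None of these had an adjusted p under 0.05 without the replicate block. In THP-1 cells with the block, IRF3 had an adjusted p of 0.0271 and IRF5 of 0.0215 by the same test. IRF5 was lower with JOA there (log2 fold change -0.29), and both stayed below the fold threshold.

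Between the control lines the lists held called genes in both directions, against 44.0% of all genes tested. Of 7 partners and chaperones, 3 were called higher in THP-1 and 0 lower, with CD14 at a log2 fold change of 1.34. Of 16 adaptors and proximal kinases, 3 were called higher and 3 lower. Among 11 NF-kB and IRF factors 0 were called higher and 2 lower, among 10 negative regulators 1 higher and 4 lower, and among 10 inducible target genes 1 higher and 3 lower.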

How the data were processed

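The deposited values were FPKM per gene and library, made by the authors from paired-end sequencing of mRNA libraries prepared with a strand-keeping kit. The submitters' processing notes name Trimmomatic, HISAT2, Cufflinks, HTSeq and hg38, without versions or roles. FPKM corrects for exon length and for how many fragments a library mapped, so genes can be compared with each other, while low genes rest on few fragments. The authors tested with DESeq, which needs counts and was not run.

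Values were used as deposited. Genes with a mean of at least 0.1 FPKM in the libraries of a comparison were kept, log2(FPKM + 0.1) was taken, and limma 3.58.1 in R 4.3.3 (lmFit, eBayes with a trend) was fitted with Benjamini-Hochberg adjustment over all genes kept. Fold changes are on that scale, which understates the change of low genes. Calls followed the study's thresholds, and the interaction of line and JOA over all 12 libraries was called on the adjusted p alone. Ratios, motifs and depth were computed in Python 3.11.15 with scipy 1.17.1. The scripts were tested on simulated data.

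Replicate numbers came from the sample titles. Deviations from the group means correlated between same-numbered libraries at 0.264 to 0.398 in MOLM-13 and 0.139 to 0.319 in THP-1 cells, and between other pairs at -0.256 to 0.0168 and -0.259 to -0.0280. Same-numbered libraries thus deviated together within each line, while the titles and the study's methods describe no pairing. The main fit was left unpaired, and a fit with the number as a block was an alternative. The other alternatives covered pseudocount, filter, scaling, eBayes without a trend, a single fit over 12 libraries, thresholds and leaving out each library.

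The members, gene lists and tests were chosen with earlier results of these data known. The text names all 10 members, TLR3, TLR9, TLR10, CD14 and LY86, and list genes called in a JOA comparison with or without the block. It also names the list gene with the smallest unadjusted p in each line, and IRF5 for its adjusted p with the block. The 3 genes nearest in profile are named for the 3 members of largest range.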

Additional observations from a re-analysis of the deposited data

How the results depend on the processing

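The number of members called stayed at 0 under every alternative for JOA in MOLM-13 cells and for the interaction. In THP-1 cells it became 1 (TLR6) with the replicate block and stayed at 0 otherwise. Genes called in THP-1 cells, 7 higher and 10 lower, became 2 and 6 with a pseudocount of 1, 0 and 0 with no filter, 1 and 0 without a trend, 81 and 80 with the replicate block, 24 and 32 in the single fit over 12 libraries, and 24 higher on the adjusted p alone. Leaving out any single library gave 0 higher and 0 to 1 lower, and leaving out both samples numbered 1, chosen after seeing the data, gave 0 and 1. In MOLM-13 cells 1 gene was called higher in the single fit and 1 lower with no filter. The interaction gave 1 higher and 2 lower with no filter, 3 and 3 with the block, and 1 lower each with a pseudocount of 1, median-ratio rescaling and TPM. The cause of these shifts was not tested.

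Between control lines the calls became 1898 higher at a mean of at least 1 FPKM (fewer genes tested), and 4931 higher and 4069 lower on the adjusted p alone. The 5 members called became 1 with a pseudocount of 1 and 2 at a mean of at least 1 FPKM, and ranged from 4 to 7 when a single library was left out. Across lines, deviations of same-numbered control libraries correlated weakly, at 0.0698 to 0.131, and those of other pairs at -0.0794 to 0.0152. With the numbers as a block, 6 members, TLR7 included, and 5593 instead of 5559 genes were called. For the ratios the replicate block leaves the mean difference as it is by construction, so it is no check of them. TPM scaling moved the median of all genes from 0.06 to 0.17 in this comparison, where LY96 then had an adjusted p of 0.0533.

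Signs turned for members near 0. With both samples numbered 1 left out, MOLM-13 values became -0.032 for TLR6, -0.034 for CD180, 0.025 for MYD88 and -0.15 for TLR5. With TPM, CD180 in THP-1 cells became 0.021 and the TLR4 interaction 0.012. Over single libraries left out, MOLM-13 log2 fold changes ran from -0.27 to 0.14 for TLR1, -0.15 to 0.13 for TLR4, -0.13 to 0.24 for TLR5, -0.11 to 0.21 for TLR6, -0.14 to 0.25 for TLR8, -0.022 to 0.24 for CD180 and -0.053 to 0.034 for MYD88. THP-1 values ran from -0.14 to 0.082 for TLR4 and -0.073 to 0.092 for CD180, interactions from -0.17 to 0.11 for TLR4, -0.098 to 0.48 for TLR7 and -0.24 to 0.019 for CD180, and TLR2 between controls from -0.0088 to 0.094. Log2 ratios ran in MOLM-13 cells from -0.38 to 0.053 for TLR1 to TLR2, -0.19 to 0.10 for TLR6 to TLR2, -0.015 to 0.26 for TLR6 to TLR1 and -0.17 to 0.053 for CD180 to LY86, and in THP-1 cells from -0.024 to 0.63 for TLR4 to LY96 and -0.081 to 0.11 for TLR1 to TLR2. For TLR6 in THP-1 cells the range was 0.50 to 0.68. Depth is unknown, so no counting error could be given for members under 0.5 FPKM.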
